A study of Mus musculus with 9 samples.

Results

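The genes described here encode the proteasome, the protease that degrades ubiquitin-tagged proteins, and the CCT chaperonin, which folds newly made proteins. They were chosen by symbol: a protein-coding mouse gene was included when its symbol begins with Psma, Psmb, Psmc, Psmd, Psme or Psmg followed by a digit, or is Tcp1, Cct2, Cct3, Cct4, Cct5, Cct6a, Cct7 or Cct8. The rule found 57 of the 53465 genes in the count table. These were 46 proteasome genes, 3 immunoproteasome genes (Psmb8, Psmb9 and Psmb10) that are described apart, and 8 CCT genes. The 46 include Psmc3ip, which matches by its symbol and is no proteasome subunit. Expression passed the filter on low counts for 56 of the 57, the genes that were tested. The exception was Psmb11, the catalytic subunit of the thymus proteasome, which had 1 count in all 9 libraries.

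Poly(A) RNA of mouse macrophages was sequenced in 3 groups of 3 libraries. Lining macrophages (libraries A, B and C) were sorted as CD45+CD11b+F4/80+GFP+ cells from hind paw synovium of Cx3cr1-GFP mice, in which green fluorescent protein is made from the locus of the fractalkine receptor. Interstitial macrophages (D, E and F) were the GFP- cells of the same sort. Bone marrow-derived macrophages (BMDM; G, H and I) were C57BL/6 marrow cells differentiated in culture for 5 days in medium conditioned with the macrophage growth factor MCSF, with no sort named for them. The BMDM therefore differed from both sorted groups in genotype, tissue, culture and sorting at the same time, and these cannot be told apart. The labels do not say whether the libraries of a group came from separate animals, pools or cultures, and they state no age, so p-values measure only the spread between these libraries, which may be technical.

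The 20S core of the proteasome is a barrel of outer alpha rings, which gate the entry, and inner beta rings, which hold the protease sites. The 19S cap recognises ubiquitin, unfolds the substrate with a ring of ATPases and feeds it into the barrel. Interferon exchanges the catalytic beta subunits for immunoproteasome versions that favour peptides for MHC class I presentation, a system used by macrophages as antigen-presenting cells. CCT, also called TRiC, is a double ring of 8 related subunits that encloses actin, tubulin and other substrates while they fold.

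Total counts per library ranged from 2194920 to 22499823, with every BMDM library deeper than every sorted one. The level of a gene is given in CPM, its count set to a library size shared by all samples and corrected by trimmed mean of M values. The general macrophage genes Ptprc, Itgam, Adgre1, Csf1r, Cd68 and Lyz2 had counts in every library. Cx3cr1 was 687, 775 and 663 CPM in lining, 2.66, 4.28 and 7.86 in interstitial and 311, 236 and 287 in BMDM, so it followed the GFP gate. Both sorted groups also held transcripts of other cells: the sum of 9 fibroblast markers was 2.51 to 3.38 CPM in BMDM, 171 to 308 in lining and 194 to 695 in interstitial. The sum of 6 erythroid markers reached 155 CPM in lining A and 422 in interstitial D, the shallowest library of each sort, against at most 45.8 in the other sorted libraries. Klf1, which defines erythroid precursors, was at 0 in both of those libraries. There 3 counts correspond to 1.45 and 1.33 CPM, so a low level of Klf1 cannot be told from 0. The sum of 8 dendritic cell markers was 5.82 to 50.3 CPM in lining and 98.3 to 173 in interstitial, and 4.32 to 6.01 in BMDM. Other marker sets were not low in BMDM. Neutrophil markers (9) summed to 35.4 to 43.7 CPM in BMDM, 0 to 6.39 in lining and 0, 63.4 and 82.4 in interstitial D, E and F. Endothelial markers (8) summed to 141 to 147 CPM in BMDM, 32.9 to 45.8 in lining and 49.2 to 140 in interstitial. Of 6 tested endothelial genes, 4 had positive and 2 negative log2 fold changes in each sorted group against BMDM. In bulk RNA, fewer cells of a type and less RNA per cell cannot be told apart.

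Promoter sequences are shown for 4 genes that were lower in both sorted groups than in BMDM, because they carry the motifs searched for and because the shown bases lie in no exon of the table. Promoter windows of 300 bases, 250 before and 50 after the annotated transcript start, were available for 48 of the 57 genes (RefSeq, GRCm38.p6). Capitals mark a motif, and each sequence runs 5′ to 3′ on the strand of its gene up to the start or to the first exon base.
Cct7 (chr6:85451355-85451504, plus strand): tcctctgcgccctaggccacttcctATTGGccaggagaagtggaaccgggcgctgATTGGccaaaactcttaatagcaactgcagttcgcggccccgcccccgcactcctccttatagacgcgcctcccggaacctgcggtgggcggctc
Psma1 (chr7:114276119-114276266, minus strand): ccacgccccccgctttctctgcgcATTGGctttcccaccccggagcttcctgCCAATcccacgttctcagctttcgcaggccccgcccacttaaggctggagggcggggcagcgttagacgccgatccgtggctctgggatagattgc
Psmb5 (chr14:54618023-54618145, minus strand): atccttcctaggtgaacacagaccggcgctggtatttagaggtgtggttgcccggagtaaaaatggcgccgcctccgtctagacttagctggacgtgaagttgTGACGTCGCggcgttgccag
Psmb6 (chr11:70525207-70525356, plus strand): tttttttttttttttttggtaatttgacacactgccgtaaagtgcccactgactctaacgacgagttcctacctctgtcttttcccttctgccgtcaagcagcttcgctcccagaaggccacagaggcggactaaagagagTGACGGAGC

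The capitals in Psmb5 and Psmb6 mark TGACNNNGC, the core of the antioxidant response element bound by the transcription factors Nrf1 and Nrf2, 47 and 9 bases before the start. Nrf1, encoded by Nfe2l1, is the known activator of proteasome genes when the proteasome is inhibited. Searched on both strands, the letters stood in the windows of 9 of the 48 members (18.8%), against 17.2% of the 9700 tested genes with a window, so the share in the members was near that of all genes. Among the CCT genes 3 of 7 had it: Tcp1 29 bases before the start, Cct6a 115 and Cct2 165. Of the 26 members with a window that were lower in lining than in BMDM, 7 held the letters, and of the 21 tested members that were not, 2 did. The capitals in Cct7 and Psma1 mark CCAAT, the NF-Y box, on either strand, where ATTGG is the box on the opposite strand. CCAAT stood in the windows of 19 of 48 members (39.6%), against 43.0% of tested genes. The windows of Psmb8, Psmb9 and Psmb10 held neither TGACNNNGC nor the interferon-sensitive core GAAANNGAA, which 7 of 48 members (14.6%) and 8.99% of tested genes had. Psmb8 had TTCNNNGAA, the gamma-activated site, 97 bases before its start, as did 8.13% of tested genes. TTCNNGAA, part of the heat shock element, stood in the windows of 4 of 48 members (8.33%), among them 2 of 7 CCT genes, and of 8.44% of tested genes. Psmb9 starts 226 bases from Tap1, the peptide transporter, in the opposite direction. The bases before these 3 starts lie wholly or partly in exons of the table and are not printed. Split by the call in lining, CCAAT stood in 9 of the 26 lower members and 9 of the 21 others. For GAAANNGAA these counts were 2 and 5, for TTCNNNGAA 3 and 1, and for TTCNNGAA 2 and 2. None of the splits by call was tested. A match is a string of letters and was not tested as a site. TTCNNNGAA, TTCNNGAA and GAAANNGAA can overlap each other.

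The first comparison asks how the neighbouring populations of the same tissue differ. No proteasome, immunoproteasome or CCT gene passed the test between lining and interstitial macrophages, with 0 of 56 called at an adjusted p under 0.05 in edgeR's quasi-likelihood test, where 3.74% of the 12610 genes tested were higher in lining and 2.05% higher in interstitial. DESeq2 and limma-voom also called 0, and these fits were unpaired. At an unadjusted p under 0.05 in edgeR there were 3 members in each direction. The median log2 fold change of the members was 0.07 (all genes -0.01). The 95% interval of the difference lay within 1 log2 unit of 0 for 47 members and within 0.5 for 20, and for the other 36 it reached beyond 0.5. The summed level of the 46 proteasome genes was 3753 ± 159 CPM in lining (SD, n = 3) and 3564 ± 309.6 in interstitial. The 8 CCT genes summed to 1127 ± 41.4 and 1273 ± 184. Among all genes called here 64.5% were higher in lining, and 53.8% with plain library totals in place of the scaling.

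The groups of sorted libraries did not overlap for 6 of 56 members, 3 in each direction, a share below that of all genes (9.92% with every lining library above, 8.65% with every interstitial library above). The most negative fold change was that of Psmd5, a chaperone that helps assemble the base of the 19S cap. Its levels were 21.3, 27.7 and 9.39 CPM in lining, 45.2, 28.3 and 35.9 in interstitial and 75.5, 72.9 and 77.0 in BMDM. Lining C was the lowest library, and lining B lay just under interstitial E. The log2 fold change of lining over interstitial was -0.84 ± 0.31 (SE), with an edgeR adjusted p of 0.162. Cct4, the CCT subunit with the most negative value, had 74.2, 109.7 and 123 CPM in lining and 129, 126 and 169 in interstitial. The groups of Cct4 were separate, with lining A lowest, at a log2 fold change of -0.46 ± 0.18 (edgeR adjusted p 0.185). Psmc6, an ATPase of the 19S ring, also had all lining libraries below all interstitial ones (log2 -0.44 ± 0.17, adjusted p 0.175). Psmb2, Psmb4 and the activator subunit Psme1 were the reverse, with log2 values of 0.33, 0.20 and 0.32. Without interstitial F, 3 members were called higher in lining by edgeR, namely Psmd8 (log2 0.57, adjusted p 0.0133), Psmb5 (0.89, 0.0401) and Psme2 (0.63, 0.0291). In that fit 3.98% of all genes were higher in lining, so the members' share was near the background.

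The other comparisons set the tissue macrophages against the cultured ones, and they share the BMDM libraries. Many members were lower in the sorted cells and none was higher. Against BMDM, 31 of 56 members were lower in lining, where 20.5% of all tested genes were higher in BMDM. In interstitial, 36 of 56 were lower, with 21.3% of all genes higher in BMDM. No member was higher in either sorted group, whereas 23.1% of genes were higher in lining and 23.4% higher in interstitial. That count of 0 was also found at an unadjusted p under 0.05 in edgeR and, after adjustment, in DESeq2 and limma-voom. The median log2 fold change of the members was -0.57 for lining and -0.65 for interstitial (all genes 0.00 and -0.01). Every lining library lay below every BMDM library for 42 members (33.9% of all tested genes), and every interstitial library for 44 (33.8%). Every lining library lay above every BMDM library for 1 member, Psma8, and for 29.2% of all genes.

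**Figure D1:**
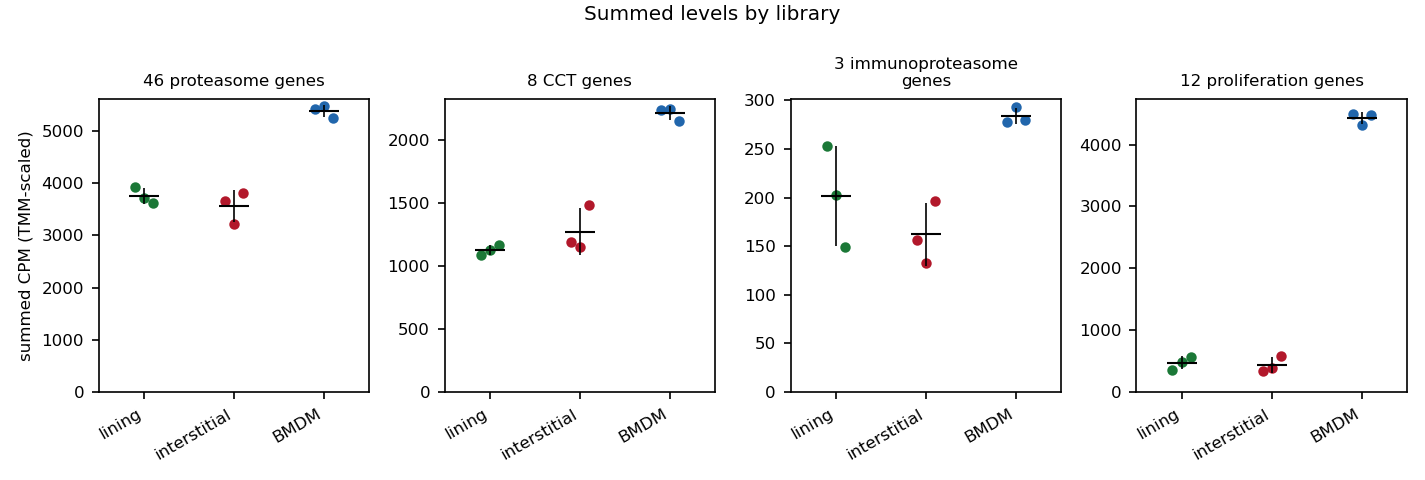
Summed CPM of the 46 proteasome, 8 CCT and 3 immunoproteasome genes and of 12 proliferation genes in each library (points; bars show mean ± SD, n = 3). The sorted libraries of the first 2 panels lie together and below the BMDM libraries, and the proliferation panel has the widest gap.

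The plot of summed levels shows how large the shift was in each set. In BMDM the proteasome genes summed to 5388 ± 117 CPM, 1.44 times the lining mean and 1.51 times the interstitial mean. The CCT genes summed to 2214 ± 53.0 CPM, 1.97 and 1.74 times. Members took 0.508% of the scaled counts in lining, 0.4998% in interstitial and 0.789% in BMDM. The median coefficient of variation of the 56 members was 16.6% in lining, 17.2% in interstitial and 3.72% in BMDM, and over all tested genes it was 25.7%, 28.1% and 5.65%. The BMDM libraries were the deepest and the least spread, and the part of depth in these spreads was not tested.

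All 8 CCT genes were lower in lining and all 8 in interstitial than in BMDM, with a median log2 fold change of -1.01 and -0.79. CCT is an obligate complex with 1 copy of each subunit per ring, encoded by 8 separate genes. The values ran from -1.27 (Cct7) to -0.68 (Cct6a) in lining and from -1.13 (Cct7) to -0.50 (Cct6a) in interstitial. For each of the 8, every BMDM library lay above every sorted library. Cct7, the eta subunit (ENSMUSG00000030007, chr6:85451514-85468475), had 119.8, 127 and 101 CPM in lining, 126, 114 and 144 in interstitial and 288, 281 and 269 in BMDM. The sorted libraries of Cct7 fell in a common range, and the lowest BMDM library was far above the highest of them. Its log2 fold change was -1.27 ± 0.14 for lining (edgeR adjusted p 1.53e-05), or 2.40-fold lower, and -1.13 ± 0.14 for interstitial (adjusted p 3.61e-05).

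**Figure D2:**
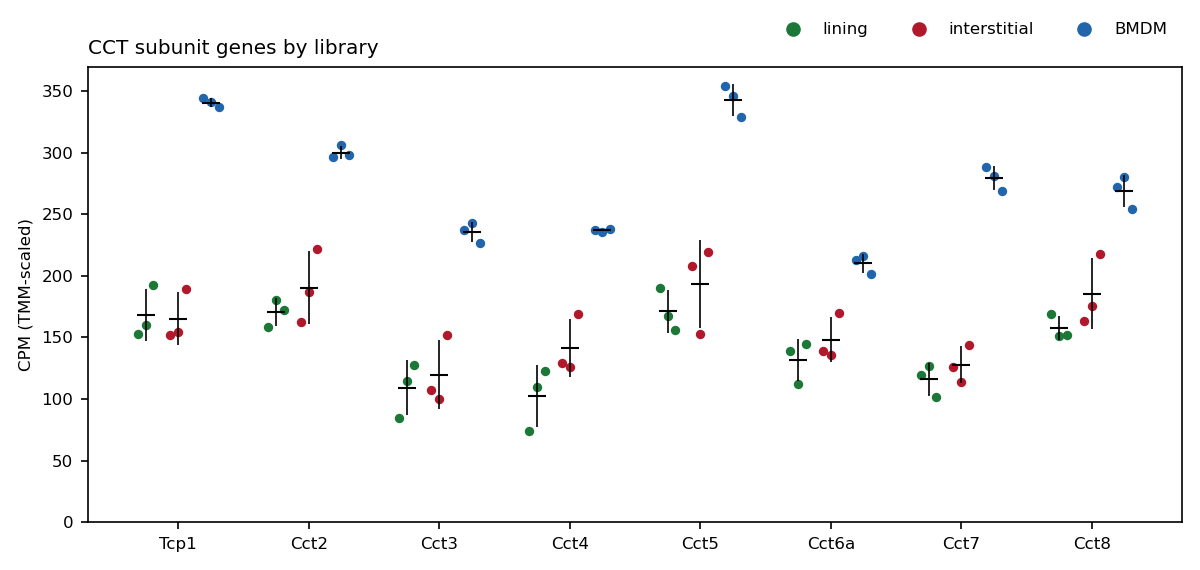
CPM of the 8 CCT genes in each library (points), with mean ± SD of 3 libraries (bars) for lining, interstitial and BMDM. For each gene the 3 BMDM points lie above all 6 sorted points.

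Tcp1, the alpha subunit and namesake of the complex (ENSMUSG00000068039, chr17:12915701-12925067), was measured at 153, 159.8 and 193 CPM in lining, 152, 155 and 189.7 in interstitial and 344, 341 and 337 in BMDM. Lining C and interstitial F were the highest sorted libraries and were still far under BMDM I. The log2 fold changes of Tcp1 against BMDM were -1.02 ± 0.14 for lining (edgeR adjusted p 9.88e-05) and -1.04 ± 0.14 for interstitial (7.68e-05), and between the sorts it was 0.02, the largest value among the CCT genes. Cct4, the delta subunit, reached 237, 236 and 238 CPM in BMDM. Its 3 BMDM libraries were almost equal, and the lining libraries, given above, were lower with a log2 fold change of -1.21 ± 0.18 (adjusted p 0.000214). The interstitial value was -0.74 ± 0.18 (0.00500). Cct5, the epsilon subunit, had 190.1, 167 and 156 CPM in lining, 208, 153 and 219.6 in interstitial and 354, 346 and 328 in BMDM. Interstitial E was the lowest library of Cct5 and interstitial F the highest sorted one, under all BMDM libraries. Its log2 fold changes were -1.003 ± 0.15 (0.000242) and -0.83 ± 0.15 (0.000905). At the other end of the family, Cct6a, the zeta subunit, had 139, 113 and 145 CPM in lining, 139, 136 and 169.7 in interstitial and 213, 216 and 202 in BMDM. Interstitial F came nearest to the BMDM libraries. Its log2 fold changes were -0.68 ± 0.14 (0.00214) and -0.50 ± 0.14 (0.0112), and the second was lost when all libraries were thinned to the shallowest (adjusted p 0.0573). Cct2, Cct3 and Cct8, the beta, gamma and theta subunits, had log2 fold changes of -0.81, -1.10 and -0.77 in lining and -0.65, -0.97 and -0.53 in interstitial.

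The lists fixed beside CCT were its partners and its main substrates. Of 11 tested partners, 2 were higher and 4 lower in lining than in BMDM, and 2 and 2 in interstitial. Hspa8, the constitutive Hsc70 chaperone that hands substrates to CCT, was lower in both (log2 -0.78 ± 0.17 and -0.76 ± 0.17). Pfdn5, a subunit of prefoldin, the carrier that brings unfolded actin and tubulin to CCT, was higher in both (0.41 and 0.46), while Pfdn4, another prefoldin subunit, was lower in lining (-1.69, edgeR adjusted p 0.00550). Pfdn1, Pfdn2, Pfdn6 and Vbp1 passed no test, with log2 values between -0.40 and 0.04. The co-chaperone gene Bag3 was higher (0.78 and 0.80). Pdcl and Txndc9, phosducin-like proteins that bind CCT, were lower in lining (-0.77 and -0.63) and Pdcl3 in interstitial (-0.76). Among 12 actin and tubulin genes, 7 were lower and 1 higher in lining, and 7 lower and 3 higher in interstitial. Tubb5, the main beta-tubulin, had 1728 ± 84.2 CPM in BMDM, 365 ± 16.9 in lining and 422 ± 60.5 in interstitial, with log2 fold changes of -2.24 ± 0.14 and -2.03 ± 0.14 (adjusted p 1.66e-07 and 3.50e-07). Tubb4b (-3.03 and -2.42) and Tuba1b (-1.93 and -1.80) were also lower, whereas Tuba1a was higher (1.07 and 0.83). Actb, the beta-actin gene, was lower in interstitial (-0.64, adjusted p 0.0112) and had -0.25 in lining (0.285). Between the sorts only Tubb2a of these lists was called, lower in lining (-0.66 ± 0.17, adjusted p 0.0442).

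Of the 45 tested proteasome genes outside the immunoproteasome, 22 were lower in lining and 27 in interstitial than in BMDM. The 45 and the 27 include Psmc3ip, which is no proteasome subunit. The median log2 fold change of the 45 genes was -0.53 and -0.64. Without BMDM G or without BMDM H the count for lining was 13, while the median over all members stayed at -0.57. In those 2 fits the genes higher in BMDM than in lining over the whole table numbered 1860 and 1851, against 2579 with all libraries. It ranged from 13 to 28 over the libraries left out in turn.

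**Figure D3:**
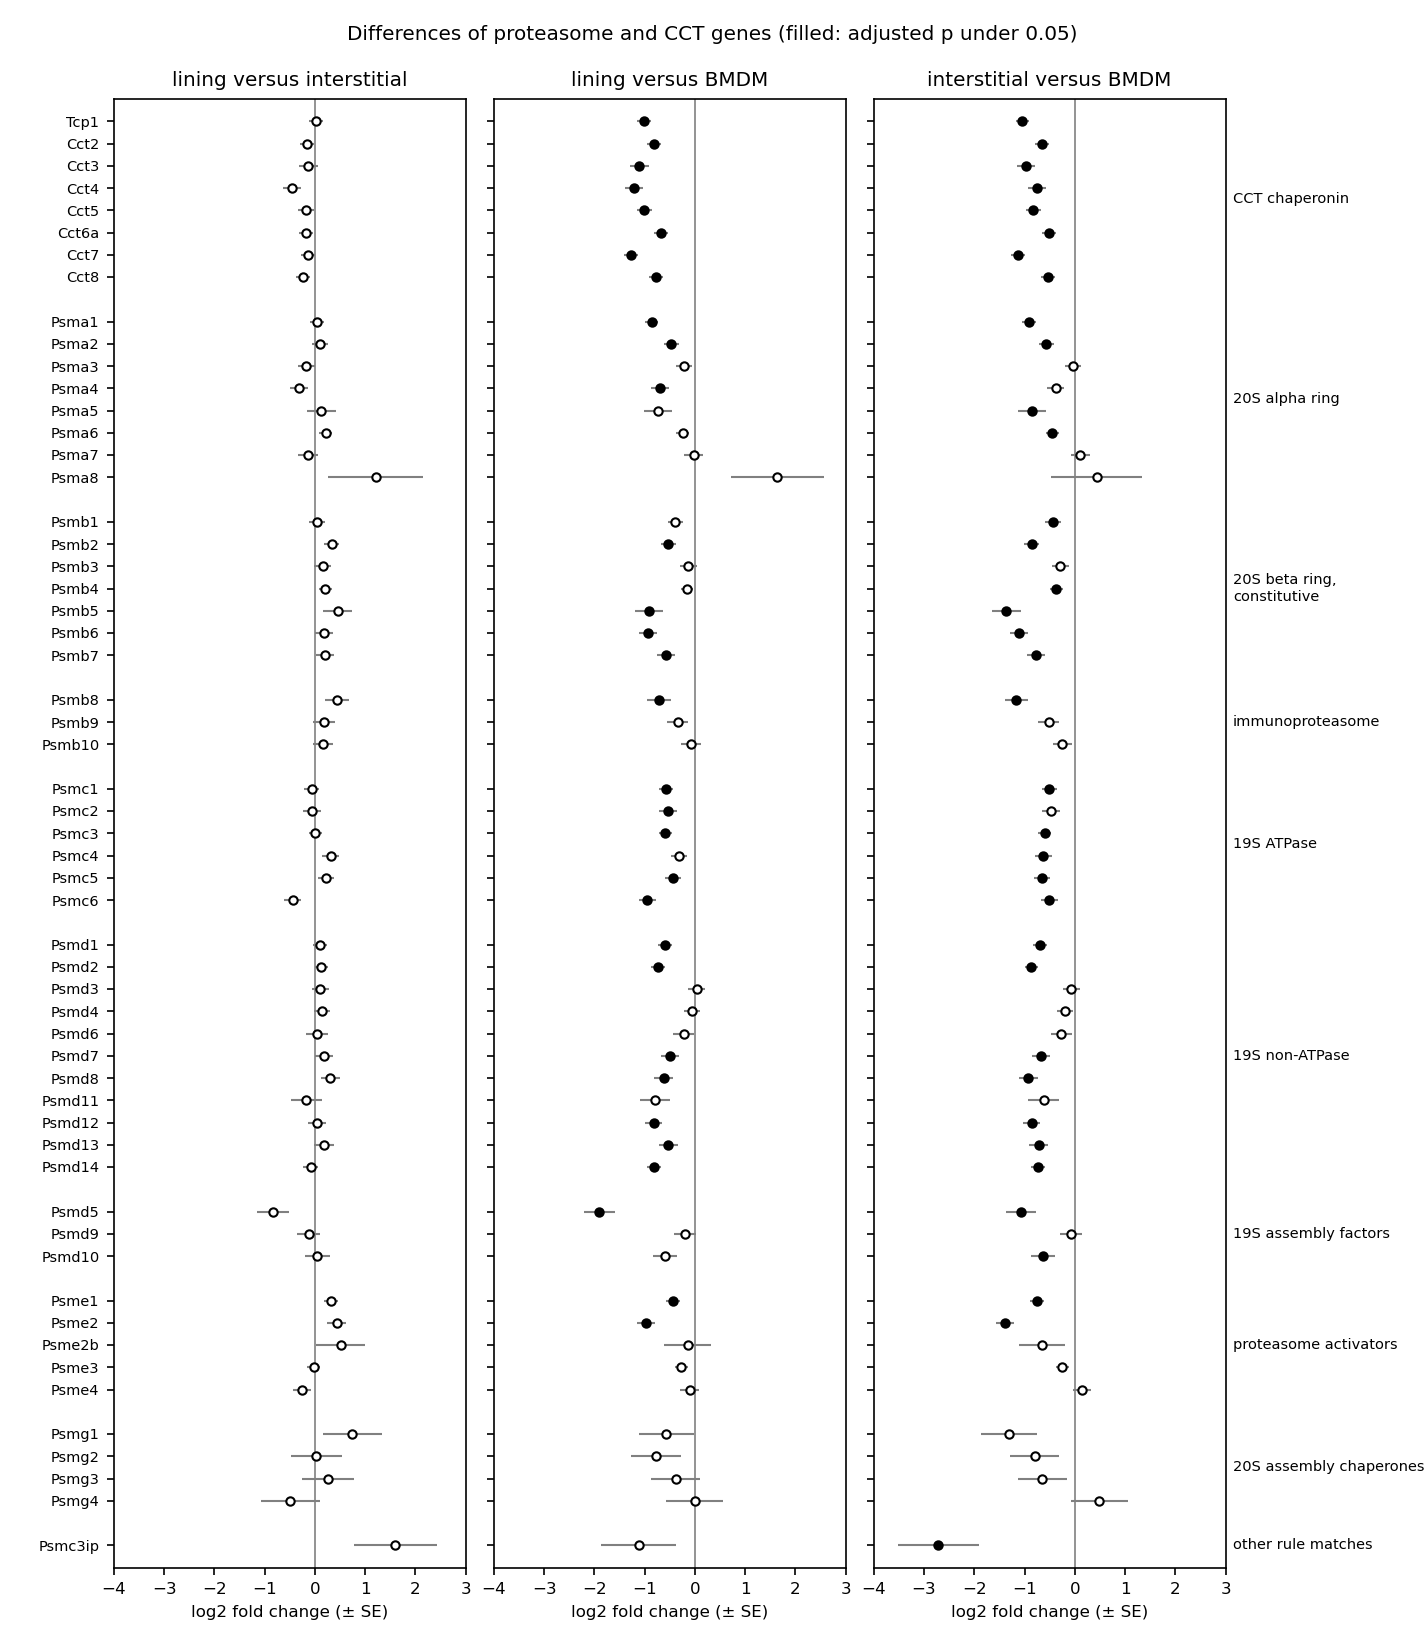
Log2 fold change ± SE of the 56 tested genes in the 3 comparisons, grouped by role. Filled circles passed an adjusted p under 0.05 and open circles did not. All circles of the first panel are open, and all filled ones lie left of 0.

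The alpha ring forms the gate of the core. Of 8 tested alpha genes 3 were lower in lining (Psma1, Psma2 and Psma4) and 4 in interstitial (Psma1, Psma2, Psma5 and Psma6). Psma1 (ENSMUSG00000030751, chr7:114264606-114276118) had 102, 86.1 and 87.9 CPM in lining, 101, 82.8 and 84.1 in interstitial and 169, 169 and 162 in BMDM. The sorted libraries of Psma1 overlapped each other and none came near BMDM. The log2 fold changes were -0.86 ± 0.14 (edgeR adjusted p 0.000299) and -0.91 ± 0.13 (0.000186). Psma7 and Psma3 lay near 0 in both comparisons, at -0.02 and 0.11 for Psma7 and -0.21 and -0.04 for Psma3. The ring takes 1 copy of each of its 7 subunits, and its genes had fold changes from -0.86 to -0.02 in lining and from -0.91 to 0.11 in interstitial. Psma8, the testis-specific alternative to Psma7, had 5.82, 2.20 and 4.88 CPM in lining, 0, 3.55 and 1.27 in interstitial and 1.64, 1.24 and 1.11 in BMDM, and did not pass in edgeR except in lining with the 6 libraries of that comparison alone (log2 1.57, adjusted p 0.0351). The call of Psma2 in lining was lost without lining C, BMDM G or BMDM H and on thinning (highest adjusted p 0.0786). That of Psma5 in interstitial was lost without interstitial E, BMDM G or BMDM H (0.0963), and that of Psma6 without BMDM G or H and on thinning (0.129). In lining Psma5 passed with DESeq2 (adjusted p 0.0480) and limma-voom (0.0168). In edgeR it passed there with plain totals (0.0240), no filter (0.0148) and the 6 libraries alone (0.0177). It also passed without lining A (0.0301) or any 1 interstitial library (highest 0.0407). Psma4 in interstitial passed with limma-voom (0.0142), and in edgeR with no filter (0.0370) and without lining A (0.0368) or C (0.0443). Psma6 in lining passed in edgeR with plain totals (0.0407) and the 6 libraries alone (0.0441).

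In the constitutive beta ring 4 of 7 genes were lower in lining and 6 of 7 in interstitial. The 3 catalytic genes were among them in both comparisons. Psmb5, the chymotrypsin-like subunit and the target of the drug bortezomib (ENSMUSG00000022193, chr14:54614119-54618022), had 29.1, 36.3 and 25.2 CPM in lining, 16.0, 16.3 and 34.4 in interstitial and 58.6, 60.4 and 53.4 in BMDM. Interstitial D and E were the lowest libraries, F lay among the lining libraries, and all 6 were under BMDM. The log2 fold change was -0.91 ± 0.28 in lining (edgeR adjusted p 0.0212) and -1.36 ± 0.29 in interstitial (0.00224). The lining call was lost without lining A, lining C, BMDM G or BMDM H (highest adjusted p 0.0659). In Psmb5 12.1% of the exon bases are shared with the microRNA gene Mir686, the largest overlap among the members.

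Psmb6, the caspase-like subunit (ENSMUSG00000018286, chr11:70525367-70527858), had 115, 96.5 and 71.3 CPM in lining, 72.3, 80.3 and 96.9 in interstitial and 186, 188 and 164 in BMDM. Lining and interstitial overlapped, and BMDM I, the lowest cultured library, was above lining A, the highest sorted one. The log2 fold changes of Psmb6 were -0.93 ± 0.18 (edgeR adjusted p 0.00130) and -1.11 ± 0.18 (0.000366). Psmb7, the trypsin-like subunit (ENSMUSG00000026750, chr2:38588036-38644087), had 88.8, 92.7 and 108 CPM in lining, 68.3, 75.0 and 108 in interstitial and 145, 147 and 139 in BMDM. Interstitial F and lining C were its highest sorted libraries, under all BMDM libraries. Its log2 fold changes were -0.58 ± 0.17 (0.0181) and -0.77 ± 0.17 (0.00326), and the lining call was lost without BMDM G or H and on thinning (highest adjusted p 0.101). Of the structural beta genes, Psmb2 was lower in both (-0.53 and -0.86), with the lining call lost without BMDM H (adjusted p 0.0554). Psmb1 and Psmb4 were lower in interstitial (-0.44 and -0.36), calls lost with the size factors of DESeq2, with upper-quartile scaling, on thinning, and without interstitial E or any BMDM library (highest adjusted p 0.121 and 0.122). The Psmb1 call was also lost with the 6 libraries alone (0.0527). In lining Psmb1 passed with limma-voom (adjusted p 0.0358), and in edgeR with plain totals (0.0172), no filter (0.0236) and the 6 libraries alone (0.0204). It also passed there without lining A (0.0367) or any 1 interstitial library (highest 0.0356). Psmb3 passed neither test (-0.14 and -0.29), but its interstitial value passed without interstitial F (edgeR adjusted p 0.0124).

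The immunoproteasome genes were expressed in all 9 libraries, and Psmb8 alone passed the test against BMDM, in both sorted groups. Their sum was 284 ± 8.38 CPM in BMDM, 202 ± 51.6 in lining and 162 ± 32.3 in interstitial (SD, n = 3). Psmb8, which replaces Psmb5 (ENSMUSG00000024338, chr17:34197721-34201454), had 149, 107 and 78.1 CPM in lining, 70.0, 65.7 and 109 in interstitial and 176, 189 and 183 in BMDM. Lining A stood highest among the sorted libraries, and lining C and interstitial D and E were the lowest. Psmb8 was lower in lining (log2 -0.72 ± 0.23, edgeR adjusted p 0.0256) and in interstitial (-1.16 ± 0.23, 0.00166). The lining call was lost without lining B, lining C or BMDM H (highest adjusted p 0.0831), which leaves 0 of 3 immunoproteasome genes called.

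Psmb9, which replaces Psmb6 (ENSMUSG00000096727, chr17:34181988-34187764), had 28.6, 31.9 and 23.7 CPM in lining, 23.5, 22.7 and 28.7 in interstitial and 35.0, 37.3 and 34.8 in BMDM. Its sorted libraries overlapped and were all below BMDM, with log2 fold changes of -0.34 ± 0.21 (edgeR adjusted p 0.207) and -0.52 ± 0.21 (0.0595). The interstitial value passed with DESeq2 (adjusted p 0.0405) and limma-voom (0.0141), and in edgeR with plain library totals, with the 6 libraries of the comparison alone, without any 1 lining library and without interstitial F (0.0299). Psmb10, which replaces Psmb7 (ENSMUSG00000031897, chr8:105935735-105938444), had 75.2, 63.7 and 47.7 CPM in lining, 63.0, 44.7 and 59.3 in interstitial and 67.3, 67.5 and 62.1 in BMDM. These ranges overlapped in all 3 groups, and the log2 fold changes were -0.08 ± 0.19 (0.769) and -0.25 ± 0.19 (0.323). Between lining and interstitial the 95% intervals of the log2 difference were -0.07 to 0.96 for Psmb8, -0.28 to 0.64 for Psmb9 and -0.26 to 0.60 for Psmb10.

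**Figure D4:**
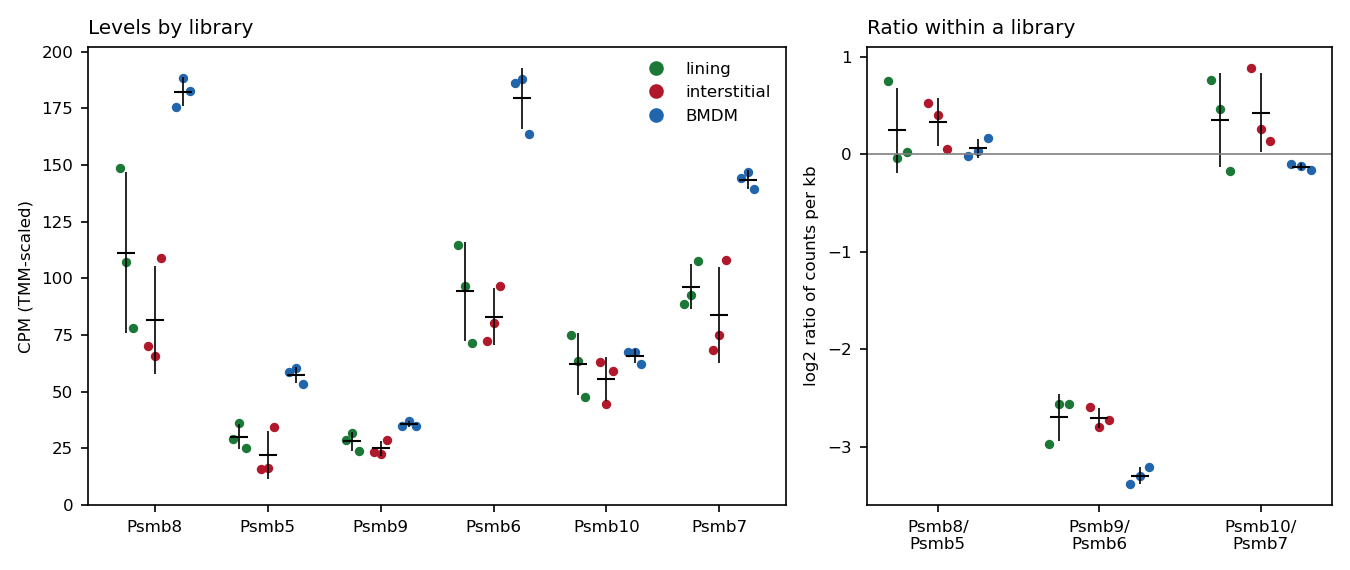
Left, CPM of the 3 immunoproteasome genes and the constitutive genes they replace, per library; right, log2 ratio of each pair within a library, both per length of exon. Points are libraries and bars mean ± SD (n = 3). The Psmb9/Psmb6 ratios of the 6 sorted libraries lie above those of BMDM.

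A ratio of partner genes within a library does not depend on the scaling between libraries, so each immunoproteasome gene was divided by its constitutive partner, both per kilobase of exon. The exon lengths include bases of rarely used transcripts, so differences of a ratio between groups can be read, and its size only roughly. For Psmb9 over Psmb6 the ratio was 0.155 ± 0.0242 in lining, 0.154 ± 0.0113 in interstitial and 0.102 ± 0.00630 in BMDM (SD, n = 3). The sorted libraries were all above BMDM, with log2 differences of 0.60 for lining and 0.59 for interstitial. In a two-sided exact permutation test each had p = 0.1, the smallest that 3 against 3 libraries can give (0.3 after adjustment over the 9 ratio tests). For Psmb10 over Psmb7 the ratio was 1.32 ± 0.409, 1.38 ± 0.408 and 0.916 ± 0.0205. The interstitial libraries did not overlap BMDM (log2 difference 0.55, exact p = 0.1, adjusted 0.3), and the lining libraries did (0.48, exact p = 0.4). For Psmb8 over Psmb5 the groups overlapped in every comparison, at 1.22 ± 0.396, 1.27 ± 0.207 and 1.05 ± 0.0726. None of the 3 ratios separated lining from interstitial (exact p = 1 for Psmb9 over Psmb6, 0.9 for Psmb10 over Psmb7 and 0.8 for Psmb8 over Psmb5).

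The lists fixed beside these genes were inducers of the immunoproteasome, and the loading of MHC class I. Of 10 inducers, 4 were higher and 4 lower in lining than in BMDM, and 4 higher and 5 lower in interstitial. The interferon-gamma receptor chain gene Ifngr1 (1.80 and 1.38) and Irf1, a transcription factor that switches on Psmb9 (1.65 and 1.84), were higher in the sorted cells. Stat2, which carries the type I interferon signal, was lower (-1.27 and -0.96), as was Nlrc5, the activator of MHC class I genes (-1.88 and -1.49). Irf8, a myeloid interferon regulatory factor, was the only gene of these lists called between the sorts, higher in lining at 149 ± 16.3 CPM against 79.6 ± 4.49 (log2 0.90 ± 0.13, edgeR adjusted p 0.00165). Of 11 MHC class I loading genes, 1 was higher and 3 lower in lining, and 1 higher and 5 lower in interstitial. The trimming peptidase gene Erap1 (-0.90 and -1.20) and the chaperone genes Pdia3 (-0.71 and -0.77) and Calr (-0.61 and -1.001) were lower and the transporter gene Tap2 was higher (0.82 and 0.63). Tap1, the head-to-head neighbour of Psmb9, had 73.6 ± 3.67 CPM in lining, 56.9 ± 20.5 in interstitial and, for BMDM, 65.7 ± 0.416, and passed no test.

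The 19S ATPases, which unfold the substrate, were lower in 5 of 6 genes in lining and 5 of 6 in interstitial. In lining the exception was Psmc4 (-0.32 ± 0.16, edgeR adjusted p 0.136) and in interstitial Psmc2 (-0.47 ± 0.18, 0.05004). Psmc3, the gene nearest to equal between the sorts (log2 0.01), had 148, 149 and 124 CPM in lining, 156, 126 and 138 in interstitial and 214, 219.8 and 200.4 in BMDM. All 6 sorted libraries of Psmc3 were under BMDM, at log2 -0.59 ± 0.13 and -0.60 ± 0.13 (adjusted p 0.00342 and 0.00289). Psmc6 had -0.94 in lining and -0.50 in interstitial. The interstitial value of Psmc2 passed with plain library totals (adjusted p 0.0403), with limma-voom (0.00343), with no filter (0.0134), without lining C (0.0458) and without interstitial D (log2 -0.76, adjusted p 0.000759). Psmc4 in lining passed in edgeR with plain totals (adjusted p 0.0430), with the 6 libraries alone (0.0187) and without interstitial F (0.0301). In lining, the calls of Psmc2 (highest adjusted p 0.0810) and Psmc5 (0.154) were lost without any 1 BMDM library. Their log2 values barely moved when BMDM G, H or I was left out, at -0.56, -0.53 and -0.56 for Psmc2 and -0.46, -0.45 and -0.46 for Psmc5. That of Psmc2 was also lost without lining A or B, and that of Psmc5 without lining B or C, on thinning, with the size factors of DESeq2 and with upper-quartile scaling. In interstitial, that of Psmc1 was lost without BMDM H and on thinning (0.0809) and that of Psmc6 without interstitial E or F or any BMDM library (0.0874).

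Of the 11 other structural genes of the 19S cap, 7 were lower in lining and 7 in interstitial. They were Psmd1, Psmd2, Psmd7, Psmd8, Psmd12, Psmd13 and Psmd14 in each. Psmd2, the scaffold on which ubiquitin shuttle receptors dock, had 236, 257 and 259 CPM in lining, 194, 236 and 258 in interstitial and 426, 426 and 402 in BMDM. Its sorted libraries overlapped each other, with interstitial D lowest, and all lay far under BMDM. The log2 fold changes were -0.74 ± 0.13 (edgeR adjusted p 0.000809) and -0.86 ± 0.13 (0.000242). Psmd14, the deubiquitinase that removes the ubiquitin chain, had -0.81 and -0.73. The ubiquitin receptor gene Psmd4 (-0.05 and -0.19), Psmd3 (0.03 and -0.07) and Psmd6 (-0.23 and -0.26) lay nearer to 0 and did not pass. Psmd11, known for raising 26S assembly in embryonic stem cells, had 100.4, 63.0 and 29.7 CPM in lining, 66.5, 72.0 and 76.9 in interstitial and 109, 114 and 108 in BMDM. All sorted libraries of Psmd11 lay below BMDM, but lining A came close to them and lining C was far lower, and neither fold change passed in edgeR (-0.79 ± 0.31, adjusted p 0.0546, and -0.62 ± 0.30, 0.115). The lining value passed with DESeq2 (adjusted p 0.0440), limma-voom (0.00339), plain totals (0.0249) and thinning (0.0490), and without lining A (log2 -1.25, adjusted p 0.00428), interstitial D (0.0402) or interstitial F (0.0420). The interstitial value passed with limma-voom (0.0195), with the 6 libraries alone (0.00355) and without lining A (0.0391) or lining C (0.0111). The lining calls of Psmd7 (highest adjusted p 0.138) and Psmd13 (0.114) were lost on thinning, without any 1 BMDM library and without lining B. That of Psmd7 was also lost without lining A, and that of Psmd13 without lining C. That of Psmd8 was lost without BMDM G (0.0515).

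Of the 3 chaperones of the 19S base, Psmd5 was lower in lining, at -1.90 ± 0.31 (edgeR adjusted p 0.000408), the most negative value of any member in that comparison, and in interstitial, at -1.06 ± 0.30 (0.0121). The interstitial call was lost without interstitial E (adjusted p 0.0578). Psmd10, also known as gankyrin, was lower in interstitial (-0.64, 0.0441), a call lost in 9 of 17 alternatives, including the removal of interstitial D or E or of any BMDM library (highest 0.188), and had -0.59 in lining (0.0624). The lining value of Psmd10 passed with DESeq2 (adjusted p 0.0409), and in edgeR with plain totals (0.0278) and the 6 libraries alone (0.0272). It also passed without lining B (0.0253), interstitial D (0.0277) or interstitial F (0.0378). Psmd9 had -0.20 and -0.07 and passed no test. The 4 chaperones that build the 20S alpha ring, Psmg1 to Psmg4, were 0 of 4 in both comparisons. Their counts were low, at summed levels of 55.8 ± 2.37 CPM in BMDM, 40.5 ± 8.16 in lining and 37.1 ± 5.76 in interstitial. Psmg1 passed with limma-voom in lining (log2 -1.63, adjusted p 0.00638) and interstitial (-1.19, 0.0380). Without lining C it also passed in lining (-1.70, 0.0140) and interstitial (0.0142), and in interstitial it passed without lining B (0.0202), with no filter (0.0365) and with the 6 libraries alone (-1.27, 0.00528). Psmg2 passed with limma-voom in both (adjusted p 0.0333 and 0.0326) and in interstitial without interstitial F (-1.45, 0.0290). Pomp, which matures the 20S core and is outside the naming rule, was lower in both (-0.78 and -0.78, adjusted p 0.00133 and 0.00123).

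Among 5 activator genes, Psme1 and Psme2 were lower in lining and in interstitial. They encode PA28 alpha and beta, the interferon-induced ring that opens the core for peptide production. Psme2 (ENSMUSG00000079197, chr14:55587441-55591113) had 76.1, 85.9 and 95.0 CPM in lining, 52.3, 55.6 and 82.6 in interstitial and 175, 170.0 and 157 in BMDM. Interstitial D and E were lowest, interstitial F lay within the lining range, and BMDM was far above. Psme2 had log2 fold changes of -0.96 ± 0.18 (edgeR adjusted p 0.000996) and -1.39 ± 0.18 (6.28e-05). Psme2b is a near-identical copy, and reads that map to both genes were not counted, so the values of both are uncertain. Psme2b itself had log2 values of -0.14 ± 0.47 and -0.65 ± 0.46 and passed no test. Psme1 had -0.43 (0.0265) and -0.75 (0.00107), and its lining call was lost on thinning and without lining B or any BMDM library (highest adjusted p 0.123). Psme3, the nuclear PA28 gamma (-0.27 and -0.25), and Psme4, the PA200 activator (-0.10 and 0.15), did not pass. Psme3 passed in lining with plain totals (adjusted p 0.0342), the 6 libraries alone (0.0428) and without lining C (0.0374), interstitial D (0.0401) or interstitial F (0.0491). Psmc3ip, matched by its symbol, is a recombination protein and no proteasome subunit. It had 1.45, 3.24 and 12.4 CPM in lining, 0, 1.82 and 3.19 in interstitial and 11.8, 11.3 and 13.5 in BMDM, where 3 counts correspond to up to 1.45 CPM in a sorted library. Psmc3ip was lower in interstitial (-2.72 ± 0.80, adjusted p 0.0159), a call lost without interstitial E or BMDM I (highest 0.0549). In lining Psmc3ip passed with limma-voom (adjusted p 0.0219), and in edgeR without lining C (0.0332).

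Levels per kilobase of exon are given as a description. The same exon lengths apply here, so the order and the spread between genes are rough, and the groups can be set side by side within a gene. In the 20S core the highest level was that of Psmb1 in all 3 groups, at 118 ± 17.8 CPM per kilobase in lining, 115 ± 18.3 in interstitial and 154 ± 8.28 in BMDM (SD, n = 3). The lowest was Psma8, at 2.54, 0.950 and 0.786. In the 19S cap Psmd11 was lowest in every group (10.1, 11.2 and 17.3), and the highest gene was Psmd8 in lining (76.0 ± 2.18) and BMDM (117 ± 2.87) and Psmc1 in interstitial (66.0 ± 11.2). CCT levels spanned 3.89-fold in lining, 3.96-fold in interstitial and 3.35-fold in BMDM. The highest CCT gene was Cct2 in both sorts (66.6 ± 4.43 and 74.5 ± 11.7), with Cct5 first in BMDM (124 ± 4.67). Cct7 was lowest in lining (17.1 ± 1.93) and Cct3 in interstitial (18.8 ± 4.37) and BMDM (37.0 ± 1.27). The ranges of mean ± SD of neighbours in this order overlapped in lining for 9 of 14 pairs in the 20S core, 14 of 16 in the 19S cap and 5 of 7 in CCT. In interstitial they overlapped for 11, 15 and 5 pairs, and in BMDM for 4, 5 and 2.

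**Figure D5:**
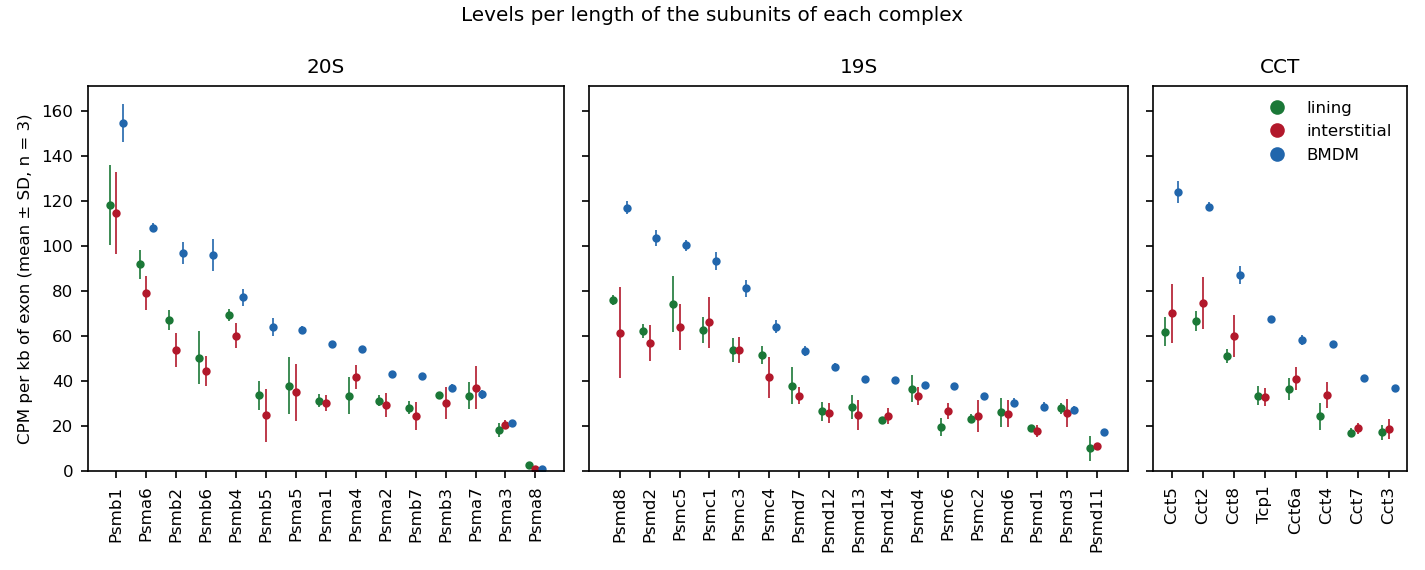
Mean CPM per kilobase of exon ± SD (n = 3) of the 20S, 19S and CCT subunit genes, ordered within a complex by the BMDM mean. Psmb1, Psmd8 and Cct5 are the highest BMDM points of their complexes, and the BMDM points of most genes lie above the sorted ones.

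Other genes of the degradation route did not all follow the subunits. Of 19 proteasome partners outside the naming rule, 10 were lower and 1 higher in lining, and 8 lower and 1 higher in interstitial. Lower in both were the shuttle receptor gene Rad23b (-0.75 and -0.40) and the 19S deubiquitinase gene Uchl5 (-0.76 and -0.85). Zfand5, a stimulator of the 26S proteasome, was the gene that was higher in both (1.16 ± 0.21 and 1.47 ± 0.21, edgeR adjusted p 0.000932 and 0.000149). Adrm1, the ubiquitin receptor Rpn13, and Sem1, the smallest 19S subunit, passed no test (log2 between -0.21 and 0.07). Of 10 regulators that act on proteasome transcription, 2 were higher and 2 lower in lining, and 2 higher and 3 lower in interstitial. Nfe2l1 (Nrf1) passed neither test (0.17 ± 0.12 and -0.02 ± 0.12), while Nfe2l2 (Nrf2) was lower in both (-0.62 ± 0.12 and -0.69 ± 0.12, adjusted p 0.00116 and 0.000497). Nfya, the DNA-binding subunit of NF-Y, was lower in both (-0.64 and -0.97), and Stat3, a cytokine signal transducer, higher in both (1.35 and 1.24). Ngly1, the enzyme that removes sugars from Nrf1 and so allows its activation, was lower in lining than in interstitial (-0.81 ± 0.20, 0.0327) and higher in both than in BMDM (0.93 and 1.74).

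Of 11 genes of ubiquitin and its early enzymes, 2 were higher and 3 lower in lining, and 3 higher and 2 lower in interstitial. The stress-responsive polyubiquitin gene Ubb was higher in both (0.50 and 0.68). Rps27a, which encodes ubiquitin fused to a ribosomal protein, and Ube2l3, a ubiquitin-conjugating enzyme, were lower in both (-0.81 and -0.75 for Rps27a, -0.73 and -0.87 for Ube2l3). Of 12 genes of the p97 pathway, which extracts proteins from membranes for degradation, 2 were higher and 2 lower in lining, and 1 higher and 3 lower in interstitial. The ATPase gene Vcp had 389 ± 11 CPM in BMDM, 223 ± 42.8 in lining and 224 ± 36.7 in interstitial, and was lower in both (-0.81 ± 0.17 and -0.79 ± 0.17, adjusted p 0.00204 and 0.00208). Its cofactor gene Nploc4 was lower as well (-0.66 and -0.77).

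Genes of the cell cycle and of the response to tissue dissociation separated the same groups. All 12 proliferation genes were lower in lining and all 12 in interstitial than in BMDM, with a median log2 fold change of -3.41 and -3.56. Their sum was 4324 to 4496 CPM in BMDM, 356 to 564 in lining and 341 to 583 in interstitial. Pcna, the replication clamp, and Mcm5, a subunit of the replicative helicase, had -2.28 and -3.40 in lining. Of 12 dissociation genes, 9 were higher and 1 lower in each sorted group, and they summed to 931 to 980.1 CPM in BMDM, 5126 to 8493 in lining and 4448 to 8862 in interstitial. Egr1, an immediate early gene, had 637, 843 and 765 CPM in lining, 465, 916 and 718 in interstitial and 0.346, 0.0994 and 0.231 in BMDM. No gene of either list was called between lining and interstitial in edgeR. The part of proliferation, dissociation and the other cell types of the sort in the lower proteasome and CCT levels was not tested. Depth was examined only by thinning the counts. With lining A and interstitial D both left out, 36 members were lower in lining and 39 in interstitial. In that fit 3124 and 3175 of all 12993 genes tested were higher in BMDM, against 2579 and 2688 of 12610 with all libraries. With all libraries thinned to the depth of the shallowest, the member counts were 26 and 30 of 55. There 2068 and 2100 of all 10621 genes tested were higher in BMDM. The median log2 fold change of the members on thinning was -0.46 in lining and -0.57 in interstitial (all genes 0.01 and 0.02).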

How the data were processed

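The authors deposited 1 table of whole-read counts per gene with no normalization. Per the file headers, featureCounts 1.6.1 counted reverse-stranded reads over exons of an Ensembl annotation of GRCm38, without multi-mapping reads, so reads shared by subunit genes and their pseudogene copies are lost. The submitters' processing notes also name STAR 2.5.4a, cutadapt 1.15, bcl2fastq 2.17.1.14, R 3.5.0 and DESeq2 1.20.0. Per the labels' protocols, 500 ng of RNA went into stranded TruSeq libraries, read as single 101 bp reads. Symbols matched 53274 of 53465 identifiers. Gene types came from GENCODE vM21. Cct6a, a processed transcript there, was included because RefSeq types it as protein-coding, and 4 pseudogenes with matching symbols were left out.

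The table was analysed in R 4.3.3 with edgeR 4.0.16 (limma 3.58.1, DESeq2 1.42.0): filterByExpr (minimum count 10, minimum total 15), TMM scaling, a robust quasi-likelihood fit of all 9 libraries with 1 mean per group (6 residual degrees of freedom), two-sided tests and Benjamini-Hochberg adjustment over 12610 genes. SE was taken from the log2 fold change and its F statistic. "Lower" and "higher" refer to an adjusted p under 0.05. The fit was run on simulated counts with known changes, drawn with the same spread beyond counting error for every gene and library. The real groups differed in spread, so that run checked only the code. Other settings changed the scaling, tool, filter, libraries and depth. Library totals of 2194920 to 22499823 make 3 counts correspond to 0.130 to 1.45 CPM. Counting error is all that such floors cover. Named by rule were the immunoproteasome genes and their partners, the 4 lowest adjusted p per direction, the extremes of CCT and of each complex per length, and per list up to 3 genes with the lowest adjusted p, given in the text where they passed, except a few list genes that are not reported here. Other genes were chosen after their values were seen. The members and lists were chosen with earlier results of these data known.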

Additional observations from a re-analysis of the deposited data

How the results depend on the processing

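Each count of called members was recomputed under 17 alternatives and, chosen after seeing the data, without lining A and interstitial D together. Of the calls, 20 of 31 in lining and 26 of 36 in interstitial against BMDM held under all 17, and no value of a called member changed sign. Leaving out 1 library at a time, the number of proteasome genes higher in lining than in interstitial ran from 0 to 3 (3 without interstitial F), the number higher in BMDM than in lining from 13 to 28, and the immunoproteasome count higher in BMDM from 0 to 1 against lining and from 1 to 2 against interstitial. With only the 6 libraries of lining and BMDM in the fit, 1 proteasome gene, Psma8, was higher in lining. In interstitial against BMDM, 2 immunoproteasome genes were called with plain library totals, with DESeq2, with limma-voom and with the 6 libraries alone. The cause was not tested. Plain library totals moved the median of all genes to -0.11 and that of the members to -0.69 in lining against BMDM, and no filter moved them to -0.13 and -0.70. Thinning every library to the shallowest left 26 members lower in lining and 30 in interstitial, of 55 tested. In the thinned fit 2068 and 2100 of all 10621 genes were higher in BMDM. No paired analysis was run because the labels give the groups no shared replicate names. The labels do not say whether a lining and an interstitial library came from the same animals. If they did, the unpaired fit between the sorts leaves that shared origin out.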
